A study of Homo sapiens with 6 samples.

Results

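Replication-dependent histone genes encode the proteins that package newly made DNA, and 72 of them were present among the 26364 gene rows of the count table. They were taken as the rows whose symbol starts with HIST1H, HIST2H, HIST3H or HIST4H and does not end as a pseudogene does, which dropped 1 row. By type they were 6 linker histone H1 genes and, of the core histones, 17 H2A, 20 H2B, 14 H3 and 15 H4 genes. RefSeq lists 70 as protein-coding, and the other 2 (HIST2H2BA and HIST2H2BC) as transcribed pseudogenes that the rule kept. The prefix is a naming rule, and 4 members (HIST1H1T, HIST1H2AA, HIST1H2BA and HIST3H3) are known mainly from the testis; they held at most 60 counts each.

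All cells were HEK293T, an established line derived from human embryonic kidney, and all were given okadaic acid at 200 nM over 3 h. This inhibitor blocks phosphatases that act on the RNA helicase UPF1, so phosphorylated UPF1 (p-UPF1) builds up. Replicates 3, 6 and 9 were made by immunoprecipitation (IP) with an antibody to p-UPF1, and replicates 1, 4 and 7 are titled pre-IP. For these last 3 the antibody field names rabbit IgG, so whether they hold input RNA or RNA from a mock IP is not settled. Separate cultures are not mentioned for the replicates, so the p-values speak of the scatter among these libraries, possibly a technical one. The study's question is which RNAs are bound as decay intermediates with p-UPF1.

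Unlike other mRNAs, replication-dependent histone mRNAs are not polyadenylated in cycling cells and end instead in a short stem-loop, bound by the stem-loop binding protein SLBP. They accumulate in S phase and are degraded quickly when DNA synthesis stops, a decay that starts with uridylation at the stem-loop and has been shown to need UPF1. H2A, H2B, H3 and H4 form the nucleosome core, and H1 binds the DNA between nucleosomes.

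The stem-loop is shown here because it is the element through which these mRNAs are processed and degraded. It was found, as 16 bases, in the GENCODE release 29 transcripts of 32 of the 72 members: 0 of 6 H1, 7 of 17 H2A, 12 of 20 H2B, 5 of 14 H3 and 8 of 15 H4 genes. A gene without a match lacks these letters in its annotated transcripts, and nothing more follows. Below, capitals mark the stem-loop and lower case its flanks; coordinates are GRCh38, a later build than the hg19 of the count table, and the element belongs to the 3' untranslated region.
HIST1H4H, chr6:26285126-26285151, minus strand: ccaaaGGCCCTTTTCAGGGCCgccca
HIST1H4J, chr6:27824454-27824479, plus strand: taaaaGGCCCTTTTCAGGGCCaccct
HIST1H2AI, chr6:27808642-27808667, plus strand: ccaaaGGCTCTTTTCAGAGCCaccta
HIST1H2AG, chr6:27133510-27133535, plus strand: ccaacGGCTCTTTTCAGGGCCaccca
HIST1H2BC, chr6:26123467-26123492, minus strand: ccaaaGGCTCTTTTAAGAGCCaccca
HIST1H2BD, chr6:26158582-26158607, plus strand: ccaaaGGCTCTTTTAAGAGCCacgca
HIST3H2BB, chr1:228458533-228458558, plus strand: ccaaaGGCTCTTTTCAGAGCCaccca
HIST1H3H, chr6:27810511-27810536, plus strand: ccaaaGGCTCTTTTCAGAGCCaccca

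The most frequent stem-loop, that of HIST1H2AI, HIST3H2BB and HIST1H3H above, was in 17 genes of types H2A, H2B and H3. Counted from 1 at the first capital, every one of the 8 H4 genes with a stem-loop differed from it by T4C and A13G, 1 base on each arm of the stem, and 3 of the 8 also by C10T in the loop. HIST1H2BC and HIST1H2BD have the same 16 bases, which differ from the most frequent by C10A in the loop. HIST1H2AG differs by A13G alone.

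Counts ranged from 905926 to 2057647 a library in p-UPF1 IP and from 600244 to 1179369 in pre-IP. Small structured RNAs (such as snoRNAs and snRNAs) took 24.1% to 43.1% of counts in p-UPF1 IP and 63.2% to 75.2% in pre-IP, which moves every share of all counts given here. Of 6 genes known from HEK293T, VIM, NEFL and NEFM were counted in all libraries and LIN28B in 5, GATA3 had 6 counts or fewer in each library and SOX11 none. Of 14 markers of blood, liver, fibroblasts, muscle and epidermis, 9 were at 0, and together they made up 3.80 to 8.83 counts per 1000000 counts of the library (CPM) in p-UPF1 IP and 0 to 6.35 CPM in pre-IP. In such bulk RNA, the part of the cells in S phase and the histone RNA per cell cannot be told apart as sources of a histone level. All libraries are from cells given okadaic acid. A gene said to fall or rise here did so in p-UPF1 IP relative to pre-IP, and no change in the cells was measured.

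Summed over the 72 genes, the mean share of all counts held by histone mRNAs was close in p-UPF1 IP and pre-IP, but only with every gene in the total. The share was 3.88%, 1.54% and 3.91% in p-UPF1 IP replicates 3, 6 and 9, and 3.68%, 1.43% and 4.30% in pre-IP replicates 1, 4 and 7. The means were 3.11% ± 1.36 and 3.13% ± 1.51 (SD, n = 3 each), a ratio of 0.992. Taken over the counts of genes other than small structured RNAs the ratio was 0.497, and over the counts without the 10 most counted genes 0.733. In both groups 1 library was far below the other two, p-UPF1 IP replicate 6 and pre-IP replicate 4, whose label numbers stand in the same run of 3. Compared within each such run, the ratio of shares was 1.06 (replicates 3 and 1), 1.08 (6 and 4) and 0.910 (9 and 7). That the numbers mark a shared preparation is not stated in the labels.

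By type the shares were not alike. H1 genes held 0.671%, 0.162% and 0.733% of counts in p-UPF1 IP and 0.214%, 0.0628% and 0.261% in pre-IP, 2.91 times as much by the means. Most genes rose on such a scale. By the summed counts of the tested genes, the median log2 fold change was 1.63 over all tested genes and 1.48 over the tested H1 genes. The medians of the core types were -0.05 for H2A, -0.06 for H2B, -0.11 for H3 and -0.40 for H4. The H1 groups overlap, because p-UPF1 IP replicate 6 lies below 2 of the pre-IP libraries, and within the runs the ratios were 3.14, 2.58 and 2.81. H4 genes held 0.541%, 0.252% and 0.526% in p-UPF1 IP and 0.826%, 0.310% and 0.871% in pre-IP, 0.657 times as much, with ratios of 0.655, 0.812 and 0.604 within the runs. The H4 groups overlap as well. The ratio of the mean shares was 0.870 for H2A, 0.997 for H2B and 0.936 for H3, each with overlapping groups. Over the counts of genes other than small structured RNAs the ratios were 1.45 for H1, 0.438 for H2A, 0.498 for H2B, 0.467 for H3 and 0.331 for H4. No test is given for these sums, since the genes were chosen with earlier results of the same libraries known.

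**Figure D1:**
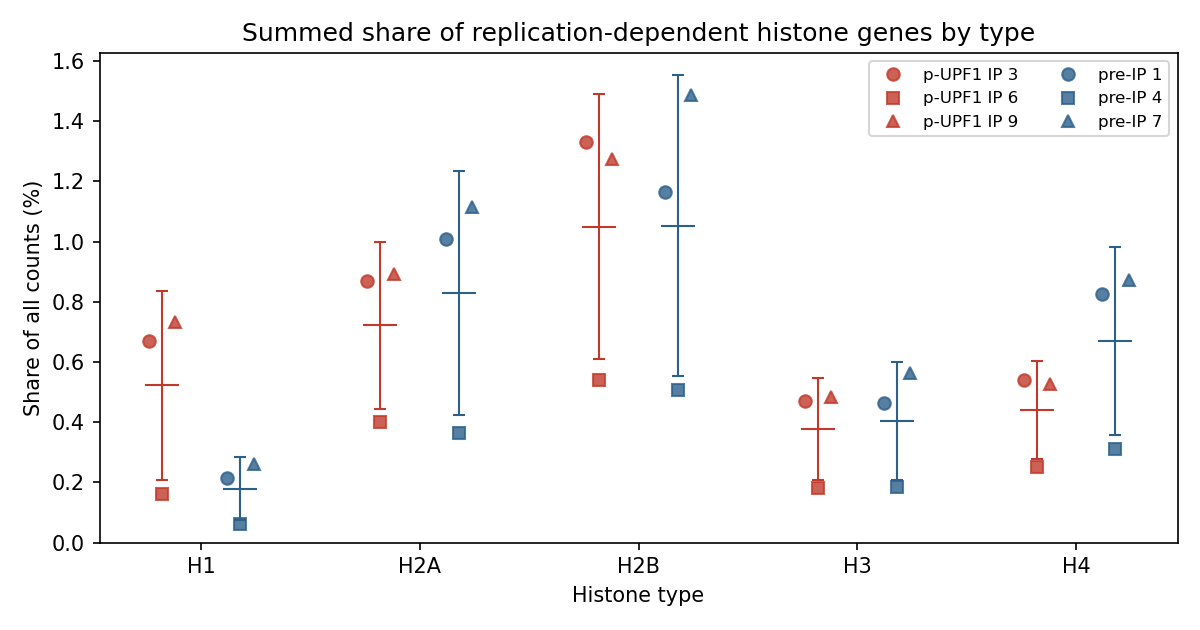
Summed share of all counts (vertical axis, %) of the genes of each histone type (horizontal axis), with p-UPF1 IP libraries in red left of pre-IP libraries in blue. Symbols are libraries (the same shape for numbers in the same run of 3), horizontal marks the mean and bars the SD of 3 libraries. H1 averaged 0.522% in p-UPF1 IP and 0.179% in pre-IP, and H4 0.440% and 0.669%; the squares are the low libraries.

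The make-up of the histone counts themselves does not depend on how libraries are scaled. H1 genes were 17.3%, 10.5% and 18.7% of the histone counts in p-UPF1 IP and 5.81%, 4.39% and 6.08% in pre-IP, so every p-UPF1 IP library was above every pre-IP library. H4 genes were 13.9%, 16.3% and 13.4% in p-UPF1 IP and 22.5%, 21.7% and 20.3% in pre-IP, the opposite order and again with no overlap. H3 genes made up 12.1% ± 0.266 in p-UPF1 IP and 12.9% ± 0.252 in pre-IP (SD, n = 3 each), a small gap with no overlap. H2A (23.8% ± 2.03 and 26.3% ± 0.981) and H2B (34.0% ± 1.31 and 33.9% ± 1.97, p-UPF1 IP first in each) overlapped. The ratio of H1 to H4 counts was 1.09 ± 0.396 in p-UPF1 IP and 0.254 ± 0.0489 in pre-IP. These parts of 1 whole move together: a larger H1 part lowers the others. The small H3 gap therefore does not show that H3 was lower relative to the other core types.

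**Figure D2:**
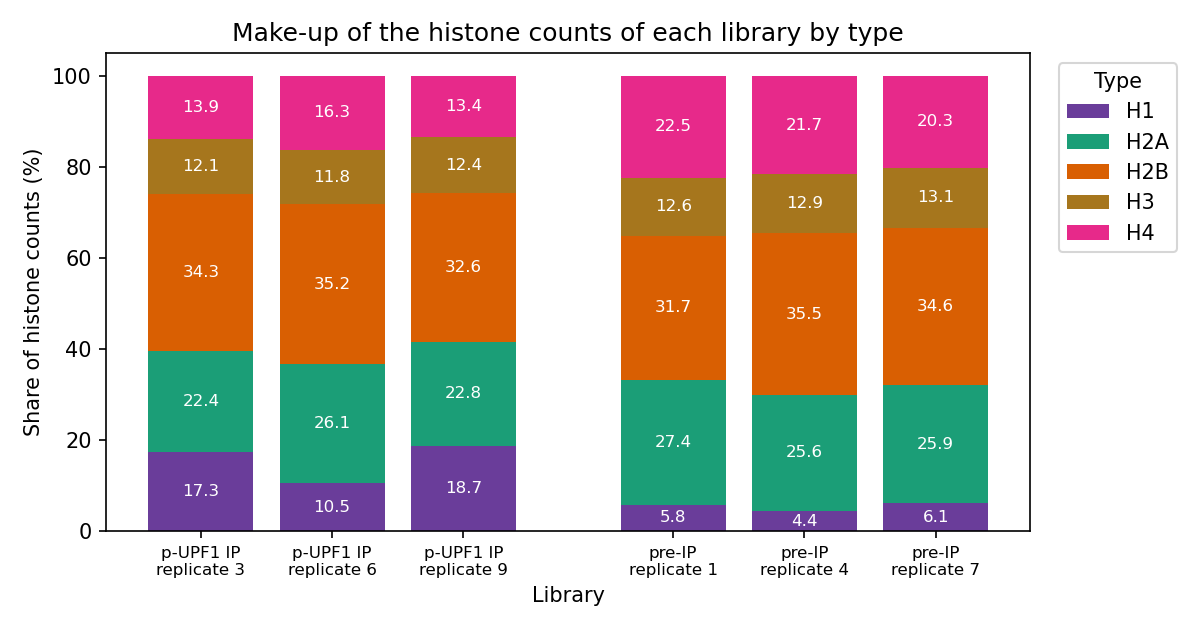
Part of the histone counts (vertical axis, %) taken by each type in each library, p-UPF1 IP replicates 3, 6 and 9 on the left and pre-IP replicates 1, 4 and 7 on the right. H1 takes 10.5% to 18.7% of the p-UPF1 IP bars and 4.39% to 6.08% of the pre-IP bars.

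Gene by gene, 43 members were counted highly enough to test, and they held 99.874% of the histone counts. The other 29 had at most 60 counts in all 6 libraries, and 10 of these had none. Of those 10, 6 (HIST2H2AA3, HIST2H2AA4, HIST2H3A, HIST2H3C, HIST2H4A and HIST2H4B) share at least 97% of their 30-base words with another histone-family gene, and how reads with several matches were counted is not given in the sources used here; the others were HIST1H3G, HIST1H4G, HIST1H4I and HIST1H4L. Read with the scaling of edgeR (TMM), which sets most genes near 0, 34 of the 43 tested members fell in p-UPF1 IP and 0 rose (edgeR's quasi-likelihood test, Benjamini-Hochberg over 8070 genes). Of all tested genes, 10.9% fell and 8.81% rose. The median log2 fold change was -1.62 over the members and 0.10 over all tested genes. At an unadjusted p under 0.05 there were also 0 higher members, and DESeq2 and limma-voom called 0 higher as well.

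All 8 tested H4 genes and all 7 H3 genes fell on this scale, with 10 of 13 H2A and 9 of 12 H2B genes and 0 of 3 H1 genes. The median log2 fold changes were -1.95 for H4, -1.68 for H3, -1.61 for H2A, -1.58 for H2B and -0.06 for H1. With each library left out in turn, 19 to 36 members fell. The fewest were 19 of 46 tested, without p-UPF1 IP replicate 6, and the most 36 of 46, without pre-IP replicate 4. Without pre-IP replicate 7 the number was 22 of 43. With p-UPF1 IP replicate 6 left out, 6 H4, 3 H3, 5 H2A and 5 H2B genes were called lower, and with pre-IP replicate 7 left out 7 H4, 3 H3, 6 H2A and 6 H2B genes. Called lower in all 6 of these fits were 19 members, which were 6 H4, 3 H3, 5 H2A and 5 H2B genes. HIST1H3C was called in 0 of the 6. The share of all tested genes called in these fits is not given here, so whether the loss is particular to histone genes was not tested. With the small structured RNAs left out, 35 members fell, with a median of -1.64.

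Library totals (the summed counts of the tested genes) give another scale. The median of all tested genes moves to 1.63, so that 60.4% of genes rose and 1.93% fell, and the members' median is -0.10. On this scale 2 members fell (HIST1H4C and HIST1H4H) and 2 rose (HIST1H1C and HIST1H1E), 27 had negative and 16 positive log2 fold changes. Under both scalings the members' median was lower than that of all genes, by amounts close to each other. Rescaling moves all genes of a library alike, so a like gap had to appear and is no further evidence. Only the fall of HIST1H4C and HIST1H4H was called under both. Taken by share of all counts, all 43 tested members had overlapping groups, where 68.7% of all tested genes were higher and 2.64% lower in p-UPF1 IP with no overlap.

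To set the members against each other, they were also scaled to the summed histone counts. In that fit 0 members fell and 0 rose by edgeR's quasi-likelihood test, also at an unadjusted p under 0.05, where 0.781% of all genes fell and 44.2% rose; no other tool was run on this scale. The member nearest the threshold was HIST1H1C, with a log2 fold change there of 1.62 (SE 0.83, adjusted p = 0.0930). Standard errors were 0.67 to 0.90 on this scale and 0.29 to 0.60 under TMM. The histone share of all counts ranged from 1.54% to 3.91% in p-UPF1 IP and from 1.43% to 4.30% in pre-IP. Dividing by the histone sum carries that spread into the other genes, and the fit borrows its variance estimates across all tested genes. The lack of calls on this scale therefore does not show that the members moved alike. This fit tests each gene against the sum of all histone counts, H1 included; a difference between H1 and the core histones was not itself tested.

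**Figure D3:**
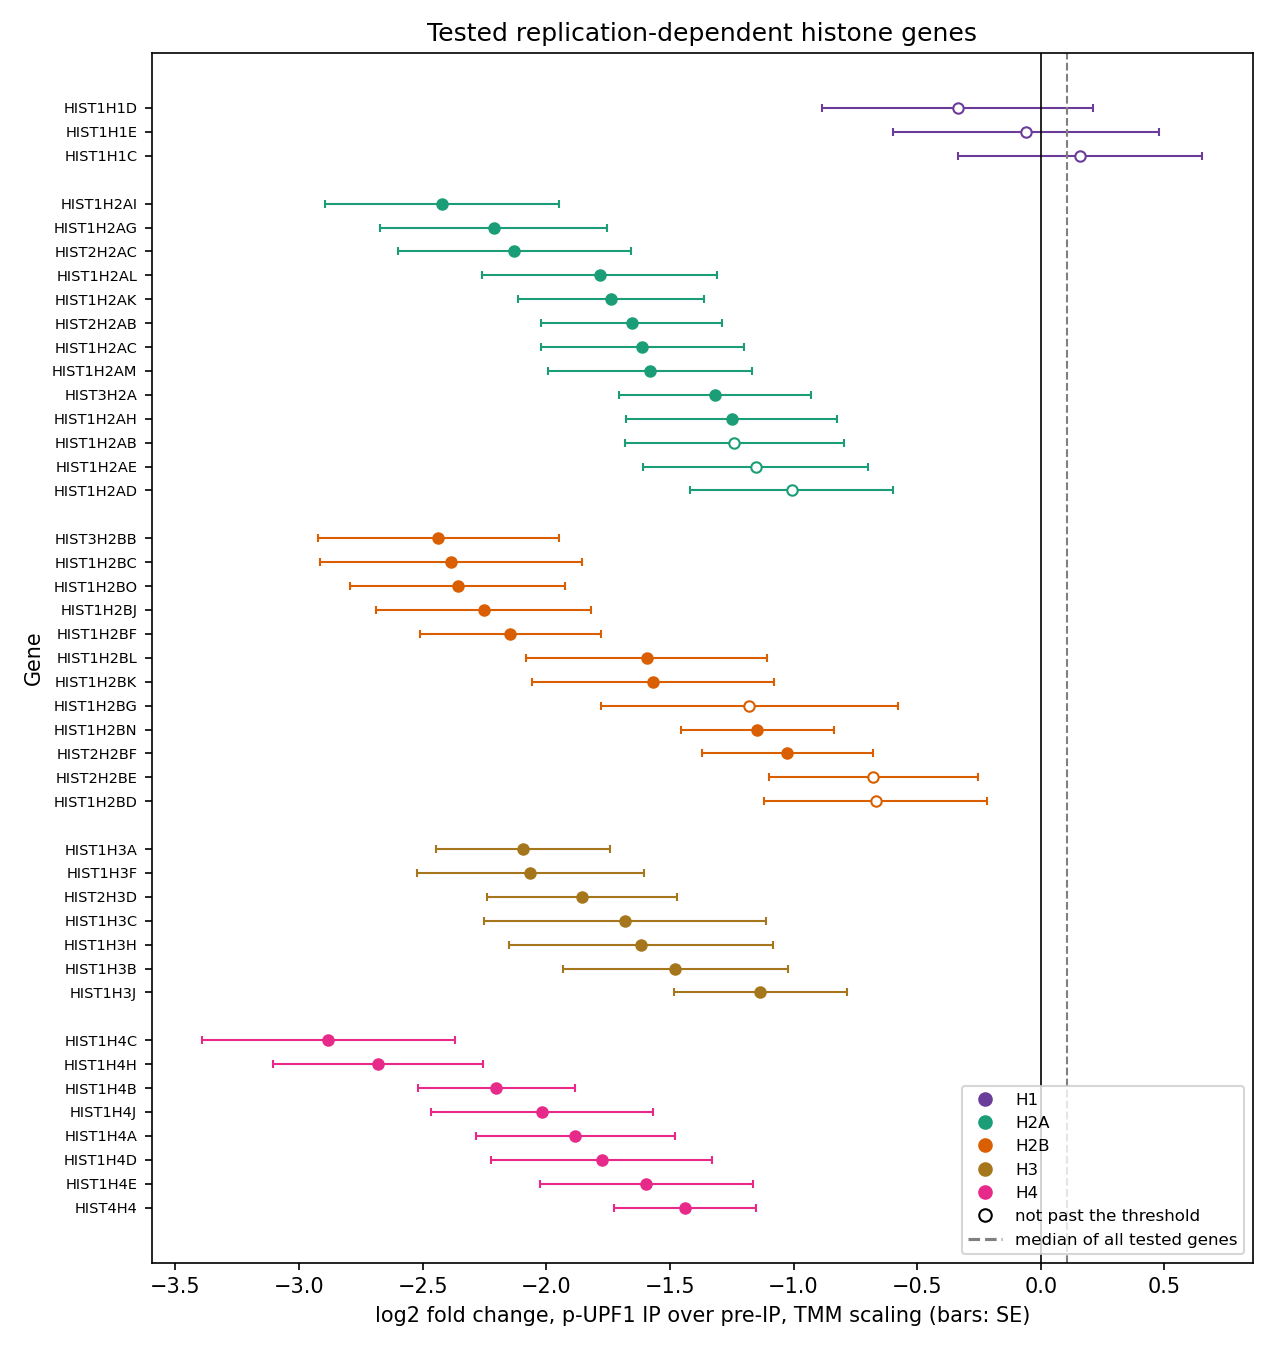
Log2 fold change of p-UPF1 IP over pre-IP under TMM scaling (horizontal axis) for the 43 tested histone genes (vertical axis, grouped by type and ordered within it). Bars are standard errors, open circles did not pass the threshold and the dashed line is the median of all tested genes, 0.10. The 3 H1 genes lie between -0.34 and 0.16, and the 40 core histone genes between -2.88 and -0.67.

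The linker histone counts came almost wholly from 2 genes. HIST1H1E had 3962, 905 and 4015 CPM in p-UPF1 IP and 1120, 365 and 1756 CPM in pre-IP. HIST1H1C had 2679, 693 and 3267 CPM in p-UPF1 IP and 973, 260 and 838 CPM in pre-IP. For both genes, p-UPF1 IP replicates 3 and 9 were above every pre-IP library and replicate 6 was not. By library totals HIST1H1C rose by 1.70 (SE 0.51, adjusted p = 0.00814) and HIST1H1E by 1.48 (SE 0.53, adjusted p = 0.0218), close to the 1.63 of the median gene. Under TMM the log2 fold change was 0.16 for HIST1H1C (adjusted p = 0.854) and -0.06 for HIST1H1E (adjusted p = 0.950). HIST1H1D was low, at 67.1, 21.7 and 49.7 CPM in p-UPF1 IP and 40.7, 3.33 and 15.9 CPM in pre-IP, and passed the threshold on neither scale. HIST1H1A, HIST1H1B and HIST1H1T had 2, 3 and 6 counts over all libraries.

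H4, which pairs with H3 in the nucleosome core, held the lowest log2 fold changes. HIST1H4C had 880, 330 and 987 CPM in p-UPF1 IP and 2343, 735 and 2615 CPM in pre-IP; the groups overlap only through pre-IP replicate 4. It fell by 2.88 under TMM (SE 0.51, adjusted p = 0.00101), and it fell by 1.35 with library totals (SE 0.47, adjusted p = 0.0175). HIST1H4H, singled out after its values were seen, had 229.9, 94.6 and 309.1 CPM in p-UPF1 IP and 622, 195 and 592 CPM in pre-IP, and its log2 fold change was -2.68 (SE 0.42, adjusted p = 0.000385) under TMM and -1.14 (SE 0.45, adjusted p = 0.0337) with library totals. HIST1H4D, the most counted H4 gene, had 1866, 958 and 1277 CPM in p-UPF1 IP and 2130, 883 and 2030 CPM in pre-IP. Its call under TMM (log2 fold change -1.78, SE 0.45, adjusted p = 0.00999) was lost without p-UPF1 IP replicate 6 (adjusted p = 0.0575). HIST4H4, the only tested gene of cluster 4, fell least of the type, by 1.44 (SE 0.29, adjusted p = 0.00229), and had 129.8, 79.3 and 129.1 CPM in p-UPF1 IP and 125.5, 81.6 and 109.0 CPM in pre-IP. Of HIST1H4J, 82.3% of the 30-base words are shared with other histone-family genes, so its value of -2.02 (SE 0.45, adjusted p = 0.00460) is uncertain as to gene.

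The ratio of HIST1H1E to HIST1H4C counts, the most counted H1 gene and the H4 gene that fell most, was 4.50, 2.74 and 4.07 in p-UPF1 IP and 0.478, 0.497 and 0.671 in pre-IP. The pair was picked after the values were seen, and the ratio is a description. Every p-UPF1 IP library had more HIST1H1E than HIST1H4C, and every pre-IP library the reverse.

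H2B genes had the widest range of the core types, from -2.44 for HIST3H2BB to -0.67 for HIST1H2BD. HIST1H2BD was the most counted histone gene of all, with 3608, 1650 and 4109 CPM in p-UPF1 IP and 1900, 1001 and 2232 CPM in pre-IP. Its log2 fold change of -0.67 (SE 0.45) did not pass the threshold under TMM (adjusted p = 0.319). HIST1H2BC, whose stem-loop has the same 16 bases, had 1359, 418 and 1059 CPM in p-UPF1 IP and 1908, 613 and 2770 CPM in pre-IP, and fell by 2.39 (SE 0.53, adjusted p = 0.00462). The ratio of HIST1H2BD to HIST1H2BC counts was 2.65, 3.95 and 3.88 in p-UPF1 IP and 0.996, 1.63 and 0.806 in pre-IP, with no overlap; this pair too was picked after its values were seen, and the difference was not tested. HIST3H2BB had 864, 270.1 and 769 CPM in p-UPF1 IP and 1198, 535 and 1878 CPM in pre-IP, and fell by 2.44 (SE 0.49, adjusted p = 0.00233). HIST2H2BE, at 2454, 1054 and 2362 CPM in p-UPF1 IP and 1292, 613 and 1369 CPM in pre-IP, did not pass the threshold either (log2 fold change -0.68, adjusted p = 0.277).

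**Figure D4:**
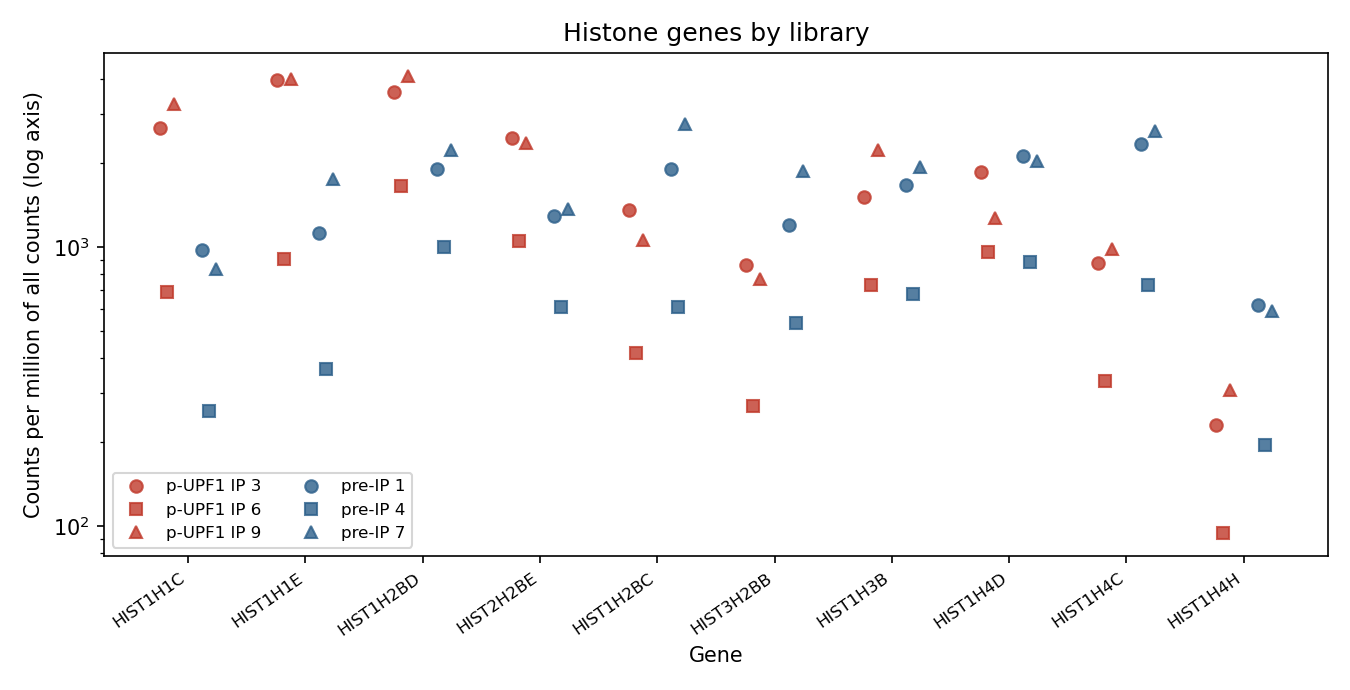
CPM (vertical axis, log scale) of 10 histone genes in each library, p-UPF1 IP in red left of pre-IP in blue. The 2 H1 genes, HIST1H2BD and HIST2H2BE lie higher in p-UPF1 IP replicates 3 and 9 than in any pre-IP library, and HIST1H4C, HIST1H4H, HIST3H2BB and HIST1H2BC lie lower there than in pre-IP replicates 1 and 7.

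Among H2A genes, HIST1H2AI fell most, by 2.42 (SE 0.47, adjusted p = 0.00195), with 511, 169.5 and 513 CPM in p-UPF1 IP and 955, 263 and 1049 CPM in pre-IP, though it shares 63.9% of its 30-base words with other histone-family genes. HIST1H2AG, which shares 3.51%, fell by 2.21 (SE 0.46, adjusted p = 0.00289) and had 1075, 451 and 846 CPM in p-UPF1 IP and 1559, 563 and 1806 CPM in pre-IP. HIST1H2AD had the highest log2 fold change of the type, -1.01 (adjusted p = 0.0936), at 491, 254 and 760.5 CPM in p-UPF1 IP and 355, 135 and 552 CPM in pre-IP. HIST1H2AH fell by 1.25 (SE 0.43, adjusted p = 0.0479), a call kept in only 1 of the 6 fits with a library left out, the one without pre-IP replicate 4. HIST2H2AC, the most counted H2A gene, had 1486, 647 and 874 CPM in p-UPF1 IP and 2038, 726 and 2006 CPM in pre-IP, and fell by 2.13 (SE 0.47, adjusted p = 0.00439). For HIST1H2AG and HIST2H2AC the calls held with any 1 library left out.

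The H3 genes had the narrowest range of the core types, from -2.09 for HIST1H3A to -1.14 for HIST1H3J. HIST1H3B, the most counted, had 1513, 733 and 2221 CPM in p-UPF1 IP and 1675, 681 and 1931 CPM in pre-IP, levels that overlap throughout. It fell by 1.48 under TMM (SE 0.45, adjusted p = 0.0299), a call lost in 4 of 6 fits with a library left out, with adjusted p from 0.0729 (without pre-IP replicate 1) to 0.139 (without p-UPF1 IP replicate 6). HIST1H3A had 258, 121 and 209 CPM in p-UPF1 IP and 348, 160 and 378 CPM in pre-IP, and fell by 2.09 (SE 0.35, adjusted p = 0.000663). Its call held in all 6 of these fits. HIST1H3H had 1830, 477 and 1466 CPM in p-UPF1 IP and 1583, 421 and 2134 CPM in pre-IP; its call under TMM (log2 fold change -1.62, adjusted p = 0.0413) was lost in 4 of the 6 fits, with adjusted p up to 0.176 without p-UPF1 IP replicate 6. HIST2H3D, which shares 86.6% of its 30-base words with other histone-family genes, fell by 1.86 (SE 0.38, adjusted p = 0.00287).

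What the tested members share apart from their type was also read. Over all 43, the log2 fold change went with coding length (Pearson r = 0.69, Spearman rho = 0.44) and not with the level (r = -0.05); these are descriptions across genes that share libraries, and length follows type, H1 genes being the longest. Outside the members, 962 tested genes had a coding length of at most 663 nt, that of the longest tested member, and 28.4% of these fell, with a median of -0.77 against 0.26 over 6463 longer genes. Coding lengths were had for 92.54% of the tested genes. Of 14 tested members whose annotated transcripts run at least 100 bases past the stem-loop 12 fell, as did 4 of 6 whose transcripts end nearer, with medians of -1.60 and -1.81. Of the 23 with no stem-loop match in their annotated transcripts 18 fell, with a median of -1.68. The 5 tested genes with the H4 stem-loops had a median of -2.02 and all fell, 8 of 11 with the most frequent stem-loop fell (median -1.32), and 2 of 3 with the loop of HIST1H2BD did (median -2.15). Of 7 HIST genes also known from polyadenylated transcripts, 4 fell, with a median of -1.57. These were HIST1H2BC, HIST1H2BJ (-2.25, adjusted p = 0.00178), HIST1H2AC (-1.61, adjusted p = 0.0107, lost without p-UPF1 IP replicate 6, where it was 0.0646) and HIST1H2BK (-1.57, adjusted p = 0.0325, and, of the 6 fits with a library left out, past the threshold in those without p-UPF1 IP replicate 3 or pre-IP replicate 4). Of HIST1H2BK, 86.9% of the 30-base words are shared with other histone-family genes, so its value is uncertain as to gene. HIST1H1C, HIST1H2BD and HIST2H2BE were not called. Of 23 members that share under 10% of their 30-base words with other histone-family genes 18 fell, with a median of -1.62.

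Replication-independent histones, whose mRNAs mostly carry poly(A) tails, give the nearest comparison. Among them H2AFX makes both forms of mRNA, so the list is not a clean contrast of mRNA ends. As a share of all counts their 12 genes held 0.170%, 0.161% and 0.218% in p-UPF1 IP. In pre-IP they held 0.121%, 0.0916% and 0.114%, so p-UPF1 IP had 1.68 times as much, with no overlap. H3F3A, which also encodes H3.3, had 0 counts in every library, and H3F3C and H2AFJ had 2 and 32 counts over all libraries. This sum, and the ratio to it below, therefore rest on the other genes of the list. Being higher with no overlap was common: 68.7% of all tested genes were so. With library totals the median log2 fold change was 0.95 for the 9 tested genes of this list and 1.63 for all tested genes. The ratio of replication-dependent to replication-independent counts was 22.8, 9.59 and 18.0 in p-UPF1 IP and 30.3, 15.6 and 37.7 in pre-IP, with overlap. Under TMM 3 of the 9 tested fell (H2AFZ and H2AFV, variants of H2A, and H3F3B, which encodes H3.3) and 0 rose, with a median of -0.64. H2AFZ had 252, 358 and 416 CPM in p-UPF1 IP and 348, 248 and 224 CPM in pre-IP; its call (log2 fold change -1.22, adjusted p = 0.0123) was lost when p-UPF1 IP replicate 3 was left out (adjusted p = 0.0915), and with library totals the value was 0.35. The call of H2AFV was lost in 4 of the 6 fits with a library left out (adjusted p up to 0.0951, without p-UPF1 IP replicate 3), and that of H3F3B in 0 of 6. H1FX, a replication-independent linker histone, had 96.7, 112 and 169 CPM in p-UPF1 IP and 20.4, 18.3 and 26.5 CPM in pre-IP, with no overlap; its log2 fold change of 0.98 missed the threshold under TMM (adjusted p = 0.0532). It was past it by library totals (2.54, adjusted p = 8.05e-05) and, at 0.994 to 1.154, in 5 other fits (RLE, upper-quartile, no filter, DESeq2 and the 10 most counted genes left out), with adjusted p from 0.0372 to 0.0487. H1F0, another, had 284, 155 and 391.9 CPM in p-UPF1 IP and 146, 85.0 and 180 CPM in pre-IP.

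The mRNAs of factors that make and degrade histone mRNAs, and S phase genes, are set against the 10.9% of all tested genes that fell and the 8.81% that rose under TMM. Of 18 tested genes of 3' end processing 4 fell under TMM, all of them Sm proteins shared with the spliceosome (SNRPB, SNRPE, SNRPF and SNRPG), and 1 rose, SYMPK, a scaffold of the cleavage complex, with 101, 87.5 and 116 CPM in p-UPF1 IP and 0.848, 0 and 0 CPM in pre-IP. SLBP had 118, 129 and 107 CPM in p-UPF1 IP and 64.4, 48.3 and 40.2 CPM in pre-IP, with a log2 fold change of -0.29 (adjusted p = 0.560). Of 23 decay genes 5 rose (UPF1, its kinase SMG1, the checkpoint kinase ATR, the 5' to 3' exonuclease XRN1 and the exosome nuclease DIS3) and 3 fell (LSM1, LSM5 and LSM6, of the ring that binds the 3' end), with a median of 0.77. UPF1 itself had 151, 128 and 266 CPM in p-UPF1 IP and 17.8, 8.33 and 29.6 CPM in pre-IP, and rose by 1.70 under TMM (SE 0.38, adjusted p = 0.00461). Of the named calls, those of ATR and XRN1 were lost in 5 of the 6 fits with a library left out, with adjusted p up to 0.229 for ATR (without p-UPF1 IP replicate 3) and 0.141 for XRN1 (the same library), those of LSM1 in 5 of 6 (up to 0.141, without pre-IP replicate 7), those of SNRPB in 6 of 6 (up to 0.125, without p-UPF1 IP replicate 9) and those of LSM5 in 2 of 6 (up to 0.0748, without p-UPF1 IP replicate 6). Of 28 S phase genes, active when histone mRNAs are made, 2 rose (MCM3 and CDT1) and 2 fell (CCNA2 and NASP), with a median of -0.07. These 4 are named outside the rule for named genes, and whether their calls hold with a library left out is not given here. The calls of MCM3 (adjusted p = 0.0490 under TMM) and CCNA2 (adjusted p = 0.0486) were close to the threshold. With library totals these lists followed the shift of all genes: 4 replication-independent, 12 processing, 16 decay and 22 S phase genes rose, and 0, 1, 1 and 0 fell.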

How the data were processed

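The authors deposited raw integer counts for each gene symbol in 1 column per library. The submitters' processing notes name hg19 and, as tools, STAR 2.5.2b, cutadapt 1.15 and Subread 1.5.0p3 with its featureCounts; "not given in the sources used here" holds for the annotation, the strand setting and the handling of multi-mapped reads, so near-identical and overlapping genes cannot be told apart. Per the labels' protocols, libraries were made by ligating adapters to RNA depleted of ribosomal RNA, with inserts above 20 bp and 20 PCR cycles, and no molecular identifiers are described.

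Members and lists were chosen with earlier results of these data known. Counts were tested with edgeR 4.0.16 in R 4.3.3 (quasi-likelihood F-test, TMM, filterByExpr with a minimum count of 10, 2 groups, no covariate, Benjamini-Hochberg at 0.05 over all 8070 tested genes); the SE was taken as the absolute log2 fold change over the root of F. The steps were tested on simulated counts. Named genes were, of each type, the 3 most counted and the lowest and highest log2 fold changes, the HIST genes known from polyadenylated transcripts, called genes of the processing and decay lists, and the replication-independent histones; exceptions are marked. Alternatives were RLE, upper-quartile and library-total scaling, no filter, a minimum count of 30, DESeq2 1.42.0, limma-voom (limma 3.58.1), a block by label number, 2 sets of abundant RNAs left out and each library left out in turn. Of these 19 fits, 2 were added after the data were seen: library totals with the block, and scaling to the summed histone counts. Stem-loops were matched in GENCODE release 29 transcripts, and all 72 symbols in RefSeq, both GRCh38.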

Additional observations from a re-analysis of the deposited data

How the results depend on the processing

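The 34 of 43 tested members called lower became 32 to 35 under RLE and upper-quartile scaling, DESeq2 and limma-voom. The same range held with no filter, a minimum count of 30 and abundant RNAs left out, and none was called higher in these fits. The number tested was not always 43: 33 of 62 were lower with no filter, 32 of 47 with DESeq2 and 34 of 41 with a minimum count of 30. The share of all tested genes called in these fits is not given here. With library totals alone 2 were lower and 2 higher. Leaving out 1 library gave 19 to 36 lower, with 43 to 46 members tested and no share of all tested genes to set beside it. The replicate block by label number gave 35 lower. Deviations of same-run libraries correlated at 0.0905, 0.176 and 0.103, each library best with its own run. These correlations are weak, and deviations within a group offset each other, so the matches are not independent of each other. They are a hint from the data and not the design. Both fits added after the data were seen moved the counts. The block with library totals gave 6 lower and 5 higher, where the median of all tested genes was 1.74 and the share of them called is not given here. Scaling to the summed histone counts gave 0 lower and 0 higher.

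Signs of named genes turned mostly where the scale moved the median of all genes. With library totals alone the log2 fold changes were 1.48 for HIST1H1E, 1.149 for HIST1H1D, 0.26 for HIST1H2AH, 0.55 for HIST1H2AD, 0.89 for HIST1H2BD, 0.87 for HIST2H2BE, 0.084 for HIST1H3B, 0.42 for HIST1H3J, 0.11 for HIST4H4, 0.74 for SNRPB, 0.009 for LSM5, 0.35 for H2AFZ, 0.40 for H2AFV, 1.05 for H2AFX, 1.42 for H2AFY, 0.95 for H2AFY2, 0.325 for H3F3B, 1.03 for H1F0, 0.25 for CENPA, 1.23 for SLBP and 0.10 for ERI1. With the block as well they were 1.47 for HIST1H1E, 1.485 for HIST1H1D, 0.35 for HIST1H2AH, 0.63 for HIST1H2AD, 0.87 for HIST1H2BD, 0.86 for HIST2H2BE, 0.079 for HIST1H3B, 0.46 for HIST1H3J, 0.11 for HIST4H4, 0.73 for SNRPB, 0.038 for LSM5, 0.34 for H2AFZ, 0.41 for H2AFV, 1.05 for H2AFX, 1.45 for H2AFY, 0.90 for H2AFY2, 0.33 for H3F3B, 1.01 for H1F0, 0.52 for CENPA, 1.25 for SLBP and 0.32 for ERI1. Scaled to the summed histone counts they were 1.44 for HIST1H1E, 1.27 for HIST1H1D, 0.31 for HIST1H2AH, 0.60 for HIST1H2AD, 0.81 for HIST1H2BD, 0.81 for HIST2H2BE, 0.054 for HIST1H3B, 0.42 for HIST1H3J, 0.033 for HIST4H4, 0.62 for SNRPB, 0.34 for H2AFZ, 0.35 for H2AFV, 1.004 for H2AFX, 1.47 for H2AFY, 0.79 for H2AFY2, 0.32 for H3F3B, 0.97 for H1F0, 0.36 for CENPA, 1.27 for SLBP and 0.615 for ERI1. Values near 0 also turned: 0.11 for HIST1H1E and 0.055 for H2AFY with no filter, and 0.033 for HIST1H1E with DESeq2. With 1 library left out, HIST1H1E ranged from -0.46 to 0.49, HIST1H1C from -0.12 to 0.54, HIST1H1D from -0.79 to 0.57 and NPAT from -0.12 to 0.54; the cause was not tested.

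The log2 ratio of the summed shares (-0.01 for all members) became -1.01 over counts without small structured RNAs and -0.45 without the 10 most counted genes, and ranged from -0.36 (without pre-IP replicate 4) to 0.31 (without p-UPF1 IP replicate 6). Every such alternative moved the shares, in all and by type, by no more than the spread between libraries, which was wide (1.16 for all members). That spread takes in the low library of each group and ignores the runs, so it is a loose measure. Leaving small structured RNAs out of the total lowered the ratio for all members and for every type, so the ratios depend on the denominator. With 3 libraries a group and 1 low library in each, the calls rest on few libraries, and genes under about 60 counts could not be tested. PCR reads without molecular identifiers are not independent molecules.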
